A study of Mus musculus with 12 samples.

Results

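The genes examined here mark and build the blood vessels of skeletal muscle: genes of endothelial cells, of the pericytes that surround capillaries, and of the ligands, receptors and transcription factors of angiogenesis. The members were a list of 42 gene symbols, written without a threshold on any measured value, and 41 of them were among the 10187 genes of the expression table (Angpt2 was not analysed here). Of the 41 genes, 31 had a mean of at least 10 normalized reads over all mice and were tested, whereas 10 fell below that minimum and are described by their values. Triceps brachii, a muscle of the upper forelimb, was sampled from 12 male C57/BL6 mice, with 3 mice in each of 4 groups that crossed myostatin genotype with activity. Wild-type mice were inactive (IW) or active (AW), and myostatin-reduced mice were likewise inactive (IM) or active (AM). All 12 mice, wild-type included, ate chow with 0.025% tamoxifen for 6 weeks from 4 months of age, to deplete myostatin in those that carried Mstn with a floxed exon 3. From about 6 months of age the active mice had free access to running wheels for 12 weeks and lived singly, whereas inactive mice shared cages, so that wheel running and single housing cannot be told apart. The promoter that drove the Cre recombinase and the tissues in which it acted were not given in the sources used here.

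Endothelial cells line every vessel, and in muscle most of them form the capillaries that bring oxygen and fuel to the fibres. Vascular endothelial growth factors, which muscle fibres themselves secrete, act on the receptors Kdr and Flt1 of endothelial cells and make capillaries sprout, and endurance exercise is known for raising the capillary supply of muscle. A second receptor system, the angiopoietins with Tek and its relative Tie1, keeps formed vessels stable, Notch and ephrin signals assign arterial and venous identity, and pericytes wrap the capillary wall. The comparisons ask whether messages of these genes differed with wheel running, with reduced myostatin, and with their combination.

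Mstn, the targeted gene, averaged 105 normalized reads in wild-type and 15.9 in myostatin-reduced mice, 84.9% lower, and no mouse of one genotype overlapped the other. The defining genes of skeletal muscle were abundant in every mouse (Acta1 from 27352 to 38677 and Ckm from 19247 to 30111 normalized reads), and the deposited totals ran from 927958 to 1080140 normalized reads per mouse, made from an estimated 9024000 to 12184000 reads. AW mouse 1 stood apart from the other active mice: it was the lowest of the 6 active mice in 26 of the 31 tested members. Slow-fibre genes varied within groups, their sum being 94.3 to 1370 normalized reads in inactive and 151 to 1831 in active wild-type mice, and 78.3 to 112 in inactive and 117 to 1343 in active myostatin-reduced mice.

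The stretches of 250 bases that precede the transcription start are shown for 4 members that rose with activity and stand for the receptor and ligand groups (Tie1, Tek, Kdr and Egfl7), and for Mcam, a surface gene that was not called. These genes were chosen after their values were seen. The sequences were taken from RefSeq (build GRCm38.p6), run 5′ to 3′ toward the gene, and have in capitals each match to AGGAAG or CGGAAG on either strand (CTTCCT or CTTCCG on the printed strand), a motif bound by transcription factors of the ETS family, to which the members Ets1, Erg and Fli1 belong. For Egfl7, the start listed first among several was used.
Tie1 (chr4:118489850-118490099, minus strand): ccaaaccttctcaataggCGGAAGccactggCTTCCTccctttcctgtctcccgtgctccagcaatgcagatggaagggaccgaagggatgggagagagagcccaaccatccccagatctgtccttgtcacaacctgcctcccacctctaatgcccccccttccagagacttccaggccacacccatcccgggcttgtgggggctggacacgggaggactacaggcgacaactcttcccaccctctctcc
Egfl7 (chr2:26580833-26581082, plus strand): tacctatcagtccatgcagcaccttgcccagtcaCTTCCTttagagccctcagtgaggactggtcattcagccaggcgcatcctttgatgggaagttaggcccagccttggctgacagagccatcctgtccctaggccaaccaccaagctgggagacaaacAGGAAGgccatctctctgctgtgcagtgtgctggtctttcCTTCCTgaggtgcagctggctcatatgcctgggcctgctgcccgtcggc
Tek (chr4:94739039-94739288, plus strand): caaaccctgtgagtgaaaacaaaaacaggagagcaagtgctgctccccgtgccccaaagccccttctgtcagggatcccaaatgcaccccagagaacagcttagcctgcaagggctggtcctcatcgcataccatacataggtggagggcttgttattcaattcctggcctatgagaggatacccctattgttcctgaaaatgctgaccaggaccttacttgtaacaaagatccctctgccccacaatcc
Kdr (chr5:75978456-75978705, minus strand): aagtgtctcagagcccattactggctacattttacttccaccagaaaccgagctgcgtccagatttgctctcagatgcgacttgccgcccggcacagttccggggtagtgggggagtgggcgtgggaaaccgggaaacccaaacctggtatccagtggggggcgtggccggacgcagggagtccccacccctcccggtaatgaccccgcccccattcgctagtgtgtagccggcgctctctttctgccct
Mcam (chr9:44134408-44134657, plus strand): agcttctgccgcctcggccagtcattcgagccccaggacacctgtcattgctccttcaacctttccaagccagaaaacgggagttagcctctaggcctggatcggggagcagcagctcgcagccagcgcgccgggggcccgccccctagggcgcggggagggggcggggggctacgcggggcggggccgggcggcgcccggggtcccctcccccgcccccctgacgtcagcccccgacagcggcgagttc
Tie1 had 2 matches and Egfl7 3, whereas Tek, Kdr and Mcam had none in this window. A promoter was at hand for 24 of the 41 members, and 9 of them (37.5%) held a match, against 10527 of 27025 promoters of the same length (39.0%). Of the 9 members called for activity that had a promoter, 4 (44.4%) held one. The share of members with this motif was thus near that of all promoters.

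Levels of the members differed over a wide range when divided by the length of their exons. Aqp1, the water channel of capillary endothelium, was highest at a mean of 113 normalized reads per kilobase over 12 mice. The growth factors Vegfb (64.7 per kilobase) and Vegfa (62.1 per kilobase) came next, followed by Cav1 (42.3 per kilobase), which forms the caveolae of endothelial cells and is also made by other cells of muscle. Cdh5, the cadherin of endothelial junctions, was at 24.2 per kilobase, Rgs5, a pericyte gene, at 20.3, and Gpihbp1, which holds lipoprotein lipase on the capillary wall, at 20.7. Pecam1 (13.9 per kilobase) and Kdr (10.3 per kilobase) were lower than these but above most members. The lowest members were Flt4, the receptor of lymphatic growth factors, at 0.85 per kilobase, Vwf at 1.17 and Cspg4 at 1.29. All 6 genes fixed as endothelial markers (Pecam1, Cdh5, Kdr, Tek, Cldn5 and Esam) and all 3 pericyte markers (Rgs5, Pdgfrb and Cspg4) were above the floor of 3 reads (0.231 to 0.316 normalized reads) in every mouse.

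**Figure D1:**
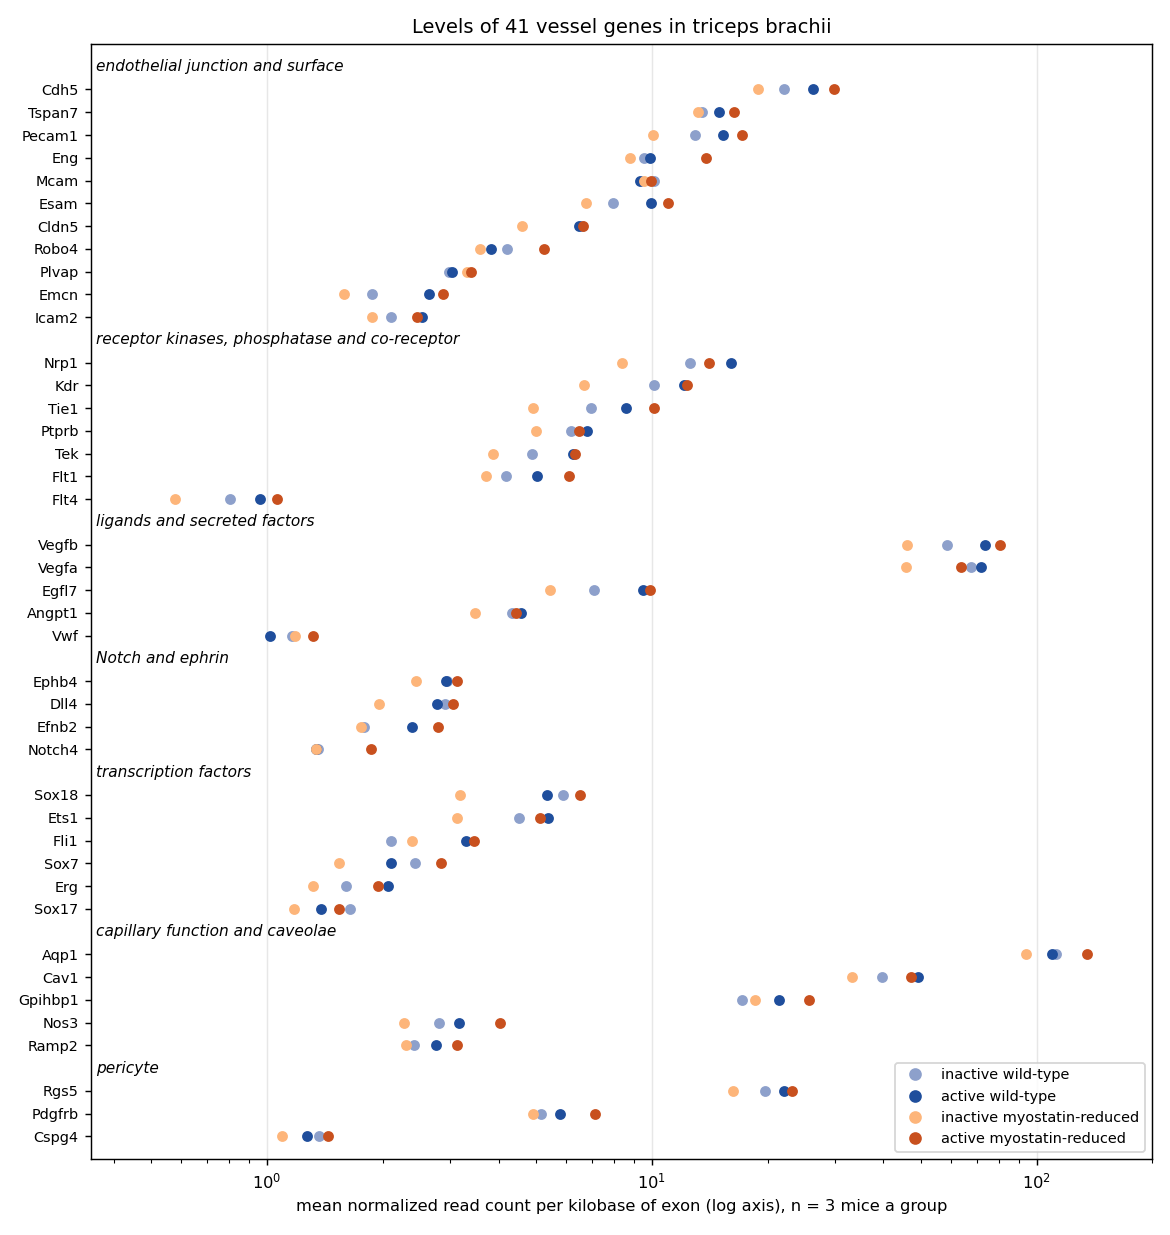
Mean normalized read count per kilobase of exon (log axis) of 41 vessel genes in 4 groups of 3 mice, ordered by role and, within a role, by level; each point is a group mean. Aqp1, Vegfb and Vegfa lie highest, and the point of the inactive myostatin-reduced group lies left of the others for most genes.

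Messages of 12 vessel genes were higher in active than in inactive mice, averaged over genotype. Of the 31 tested members, 12 rose with activity and 0 fell, by limma with Benjamini-Hochberg adjustment over all 7247 genes tested at an adjusted p under 0.05. In the same comparison 14.5% of all genes were called, 7.99% higher and 6.51% lower. The 12 genes were the receptors Tie1, Tek, Kdr and Flt1, the surface genes Emcn, Pecam1 and Esam, the secreted factors Vegfb and Egfl7, the ephrin Efnb2, the transcription factor Ets1 and the caveolin Cav1, and their folds ran from 1.3 to 1.55. The median log2 change was 0.38 over the 31 members, 29 of which were above 0, whereas the median over all genes tested was -0.022 with 44.5% above 0. In bulk muscle, a change in the number of vessel cells and a change in RNA per cell cannot be told apart. No member separated all 6 active from all 6 inactive mice, which 3.09% of all genes did. Vegfb, Egfl7, Tie1, Tek and Emcn were called in all 12 fits that left out 1 mouse, and the other 7 were lost in at least 1 of them: 5 members were called without IW mouse 2, AW mouse 2, AW mouse 3 or AM mouse 2, 6 without IM mouse 2 or 3, 7 without IM mouse 1, and 19 without AW mouse 1. The share of all genes called moved with these counts, being 7.62% to 8.49% in the 4 fits with 5 members, 9.04% and 10.1% in those with 6, 9.93% without IM mouse 1 and 20.5% without AW mouse 1. With the slow-fibre score of each mouse as a covariate, 2 members (Vegfb and Egfl7) were called, a share near the 5.53% of all genes called in that fit.

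Among the receptors, 4 of 6 tested members rose with activity. Tie1 (chr4:118143796-118162666, minus strand; coordinates of genes are those of NCBIM37, that is mm9), a receptor kinase found mainly in endothelium, measured 32.1, 29.7 and 40.7 normalized reads in inactive and 31.7, 45.5 and 49.5 in active wild-type mice, and 22.2, 26 and 24.4 in inactive and 36.4, 65.1 and 48.4 in active myostatin-reduced mice. Every AM mouse was above every IM mouse and every IM mouse below every IW mouse, and of the AW mice numbers 2 and 3 were above all IW mice while number 1 was inside their range. The log2 change with activity was 0.63 (SE 0.14, adjusted p = 0.0119). Tek (chr4:94405980-94541667, plus strand), the angiopoietin receptor, measured 26.9, 20.8 and 21.5 normalized reads in inactive and 22.9, 30.1 and 35.1 in active wild-type mice, and 18.2, 19.7 and 16.7 in inactive and 24.2, 33.3 and 31.6 in active myostatin-reduced mice. Its pattern was that of Tie1, with AW mouse 1 again inside the range of IW mice, and the log2 change was 0.49 (SE 0.11, adjusted p = 0.0122). Kdr (chr5:76328852-76374483, minus strand), the main signalling receptor for Vegfa, measured 78.5, 65.6 and 76.9 normalized reads in inactive and 65.1, 88.6 and 110.5 in active wild-type mice, and 52.9, 42.1 and 51 in inactive and 65.2, 116 and 88.3 in active myostatin-reduced mice. AW mouse 1 and AM mouse 1 were each just below the lowest IW mouse, whereas all IM mice were lower still. Kdr changed by 0.53 (SE 0.14, adjusted p = 0.0281) on the log2 scale. Flt1 (chr5:148373180-148537587, minus strand), which binds Vegfa and Vegfb and limits the Vegfa left for Kdr, measured 52.3, 38.2 and 54.9 normalized reads in inactive and 41.6, 60.1 and 73.3 in active wild-type mice, and 37.1, 46.5 and 45.6 in inactive and 58.2, 88.1 and 65.9 in active myostatin-reduced mice. For Flt1 every AM mouse was above all inactive mice of both genotypes, IM and IW mice overlapped, and the log2 change was 0.47 (SE 0.14, adjusted p = 0.0486).

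The co-receptor Nrp1 (chr8:130882973-131029362, plus strand), which joins Vegfa to Kdr and was the highest receptor per kilobase, measured 93.2, 63.1 and 67.1 normalized reads in inactive and 61.2, 104 and 119 in active wild-type mice, and 53.9, 49.9 and 44.5 in inactive and 72.7, 106 and 70.7 in active myostatin-reduced mice. It changed by 0.51 (SE 0.16, adjusted p = 0.0503), just outside the threshold, and it was called without IW mouse 1, AW mouse 1, AM mouse 1 or AM mouse 3. Ptprb, the phosphatase that acts on Tek, overlapped between all groups and changed by 0.23 (SE 0.17, adjusted p = 0.379). Flt4 was below the minimum for testing.

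Of the junction and surface genes, 3 of 8 tested members rose. Pecam1 (chr11:106515531-106611942, minus strand), the adhesion molecule of endothelial contacts, measured 55.9, 49.6 and 62.2 normalized reads in inactive and 48.5, 72.6 and 77.3 in active wild-type mice, and 42.3, 43.8 and 44.3 in inactive and 55.4, 92.7 and 73.8 in active myostatin-reduced mice. The IM mice lay close together and below all other mice, AW mouse 1 was below every IW mouse, and AM mouse 2 was the highest of all. Pecam1 changed by 0.47 (SE 0.13, adjusted p = 0.0308). Emcn (chr3:137004031-137095149, plus strand), a sialomucin of capillary and venous endothelium, measured 10.3, 10.7 and 9.55 normalized reads in inactive and 9.12, 17.5 and 16.2 in active wild-type mice, and 8.59, 9.23 and 7.95 in inactive and 13, 18.7 and 14.8 in active myostatin-reduced mice. All AM mice were above all inactive mice, and AW mouse 1 fell among the IM values. The change of Emcn was 0.59 (SE 0.14, adjusted p = 0.0158). Esam (chr9:37335663-37345904, plus strand), a molecule of endothelial tight junctions, measured 19.9, 19.5 and 29 normalized reads in inactive and 21.4, 31 and 33.4 in active wild-type mice, and 15.9, 20.2 and 21.9 in inactive and 24.2, 40 and 30.6 in active myostatin-reduced mice. IW mouse 3 overlapped the active mice, and the change was 0.49 (SE 0.15, adjusted p = 0.0454). Cdh5 (chr8:106625525-106668402, plus strand), the cadherin that holds endothelial cells together and the highest of these genes per kilobase, measured 87.5, 73 and 103 normalized reads in inactive and 73, 104 and 137 in active wild-type mice, and 75.2, 74.4 and 75.8 in inactive and 87.3, 148 and 121 in active myostatin-reduced mice. The values of IM mice were nearly equal and all below AM mice, AW mouse 1 and IW mouse 2 were level as the lowest of the 12 mice, and the change was 0.42 (SE 0.15, adjusted p = 0.0831), outside the threshold, although Cdh5 was called without AW mouse 1 or AM mouse 1. The other 4 tested surface genes were not called: Tspan7 at 0.23 (adjusted p = 0.0512) (called without IW mouse 3, AW mouse 1 or AM mouse 1), Eng, a co-receptor for ligands of the TGF-beta family, at 0.35 (adjusted p = 0.233), Robo4 at 0.20 (adjusted p = 0.328) and Mcam at -0.035 (adjusted p = 0.786). The exons of Eng overlap those of Ak1 on the same strand and of Fpgs on the opposite strand. Mcam stayed between 27.8 and 38.0 in all 12 mice, its AM values were 33.4, 33.4 and 33.5, and the sign of its change turned when AW mouse 1 or AW mouse 2 was left out.

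Of the secreted factors, 2 of 5 tested members rose. Vegfb (chr19:7056963-7062141, minus strand), a ligand of Flt1 linked to fatty acid uptake through endothelium, measured 102, 78.7 and 102 normalized reads in inactive and 99.1, 119 and 136 in active wild-type mice, and 73.9, 69 and 79.1 in inactive and 107, 149 and 132 in active myostatin-reduced mice. Every AM mouse was above every inactive mouse, and the change, 0.55 (SE 0.10, adjusted p = 0.00428), had the smallest adjusted p of the members. Egfl7 (chr2:26435534-26448640, plus strand), which endothelial cells secrete into their own matrix and whose intron hosts a microRNA, measured 21.8, 25.6 and 28.7 normalized reads in inactive and 25.3, 35.6 and 41 in active wild-type mice, and 19.6, 18.6 and 20.4 in inactive and 29.8, 38.5 and 38 in active myostatin-reduced mice. The AM and IM mice were far apart, all AM mice were above all IW mice, and AW mouse 1 was inside the IW range. Egfl7 changed by 0.60 (SE 0.11, adjusted p = 0.00466); its exons overlap those of Agpat2 on the opposite strand and of Gm20532 on the same strand, and the sources do not say if reads were counted by strand. Vegfa, the principal angiogenic factor, was at 0.28 (adjusted p = 0.0647) for activity, was called without IW mouse 1 or AM mouse 1 and is described with genotype. Angpt1, the ligand that activates Tek, was at 0.22 (adjusted p = 0.367), and Vwf, the clotting factor carrier stored in endothelium, at -0.027 (adjusted p = 0.921), with a sign that turned without AW mouse 1, IW mouse 3, IM mouse 3 or AM mouse 3.

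Of the Notch and ephrin genes, Efnb2 was called among 4 tested. Efnb2 (chr8:8617434-8661239, minus strand), the ephrin of arterial endothelium, measured 10.5, 7.38 and 7.83 normalized reads in inactive and 8.48, 11.4 and 14.3 in active wild-type mice, and 8.33, 8.73 and 8.18 in inactive and 10.8, 13.2 and 16 in active myostatin-reduced mice. Here IM and IW mice overlapped, all AM mice were above all inactive mice, and the change was 0.47 (SE 0.13, adjusted p = 0.0296). Dll4 (chr2:119151520-119161698, plus strand), the Notch ligand of tip cells, measured 12, 9.87 and 11.6 normalized reads in inactive and 11, 8.76 and 12.1 in active wild-type mice, and 6.75, 6.37 and 9.46 in inactive and 8.28, 14.2 and 12.8 in active myostatin-reduced mice. AW and IW mice overlapped, and AM mouse 1 was below IM mouse 3, so that neither pair of groups was apart. Its activity change was 0.25 (SE 0.14, adjusted p = 0.239). Ephb4 (chr5:137791337-137819897, plus strand), the venous receptor of Efnb2 and the highest of this group per kilobase, measured 15.6, 9.5 and 16 normalized reads in inactive and 10.7, 13.8 and 16.2 in active wild-type mice, and 10.2, 11.9 and 11.8 in inactive and 11.1, 16.7 and 15.7 in active myostatin-reduced mice. The groups overlapped, with a change of 0.16 (SE 0.14, adjusted p = 0.473), and the exons of Ephb4 overlap those of Zan on the opposite strand. Notch4, the receptor most restricted to endothelium, was at 0.20 (adjusted p = 0.438).

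Ets1 was the only one of the 6 endothelial transcription factors with enough reads to be tested. Ets1 (chr9:32443806-32565405, plus strand), which acts on many endothelial promoters and is also made by lymphocytes, measured 30.5, 26.2 and 30.3 normalized reads in inactive and 26.4, 35.2 and 42 in active wild-type mice, and 20.1, 19.2 and 20.8 in inactive and 26, 38.5 and 33.9 in active myostatin-reduced mice. All IM mice were below the other 9 mice, AW mouse 1 and AM mouse 1 sat beside the lowest IW mouse, and the change with activity was 0.45 (SE 0.11, adjusted p = 0.0203).

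Of the genes of capillary function, 1 of 4 tested members rose. Cav1 (chr6:17256335-17291452, plus strand) measured 143, 130.1 and 136 normalized reads in inactive and 126, 164 and 217 in active wild-type mice, and 109.5, 113 and 118 in inactive and 131, 185 and 170.4 in active myostatin-reduced mice. AW mouse 1 was below all IW mice while AW mouse 3 was the highest of all, and the change was 0.38 (SE 0.12, adjusted p = 0.043). Aqp1 (chr6:55286426-55298549, plus strand) measured 240.0, 279.9 and 368 normalized reads in inactive and 208, 305 and 349.7 in active wild-type mice, and 228, 285 and 225 in inactive and 293, 395 and 378 in active myostatin-reduced mice. AM mice were above IM mice, AW and IW mice overlapped with AW mouse 1 lowest of all, and the change of 0.24 (SE 0.14, adjusted p = 0.271) was not called. Gpihbp1 was at 0.38 (adjusted p = 0.0923), and Nos3, the nitric oxide synthase of endothelium whose exons overlap Atg9b on the opposite strand, was at 0.43 (adjusted p = 0.103); both were called without AW mouse 1, and Gpihbp1 also without IW mouse 3.

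None of the 3 pericyte genes passed the test of activity. Rgs5 (chr1:171585632-171625944, plus strand), a regulator of G-protein signalling that marks pericytes, measured 95.2, 80.2 and 93.5 normalized reads in inactive and 77, 105 and 119 in active wild-type mice, and 75.3, 83 and 63.4 in inactive and 107, 118 and 91.6 in active myostatin-reduced mice. AM mice were above IM mice, AW mouse 1 was below every IW mouse, and the change was 0.33 (SE 0.11, adjusted p = 0.0587). Pdgfrb, the receptor through which endothelium recruits pericytes, was at 0.34 (adjusted p = 0.103) and Cspg4 at 0.14 (adjusted p = 0.621). Rgs5 and Pdgfrb had unadjusted p-values of 0.00962 and 0.0235, and both were called without AW mouse 1 and Rgs5 also without AM mouse 3. Over all roles, 20 of the 31 members had an unadjusted p under 0.05, as did 30.2% of all genes tested; with the slow-fibre score as a covariate these were 10 members and 21.7% of all genes.

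**Figure D2:**
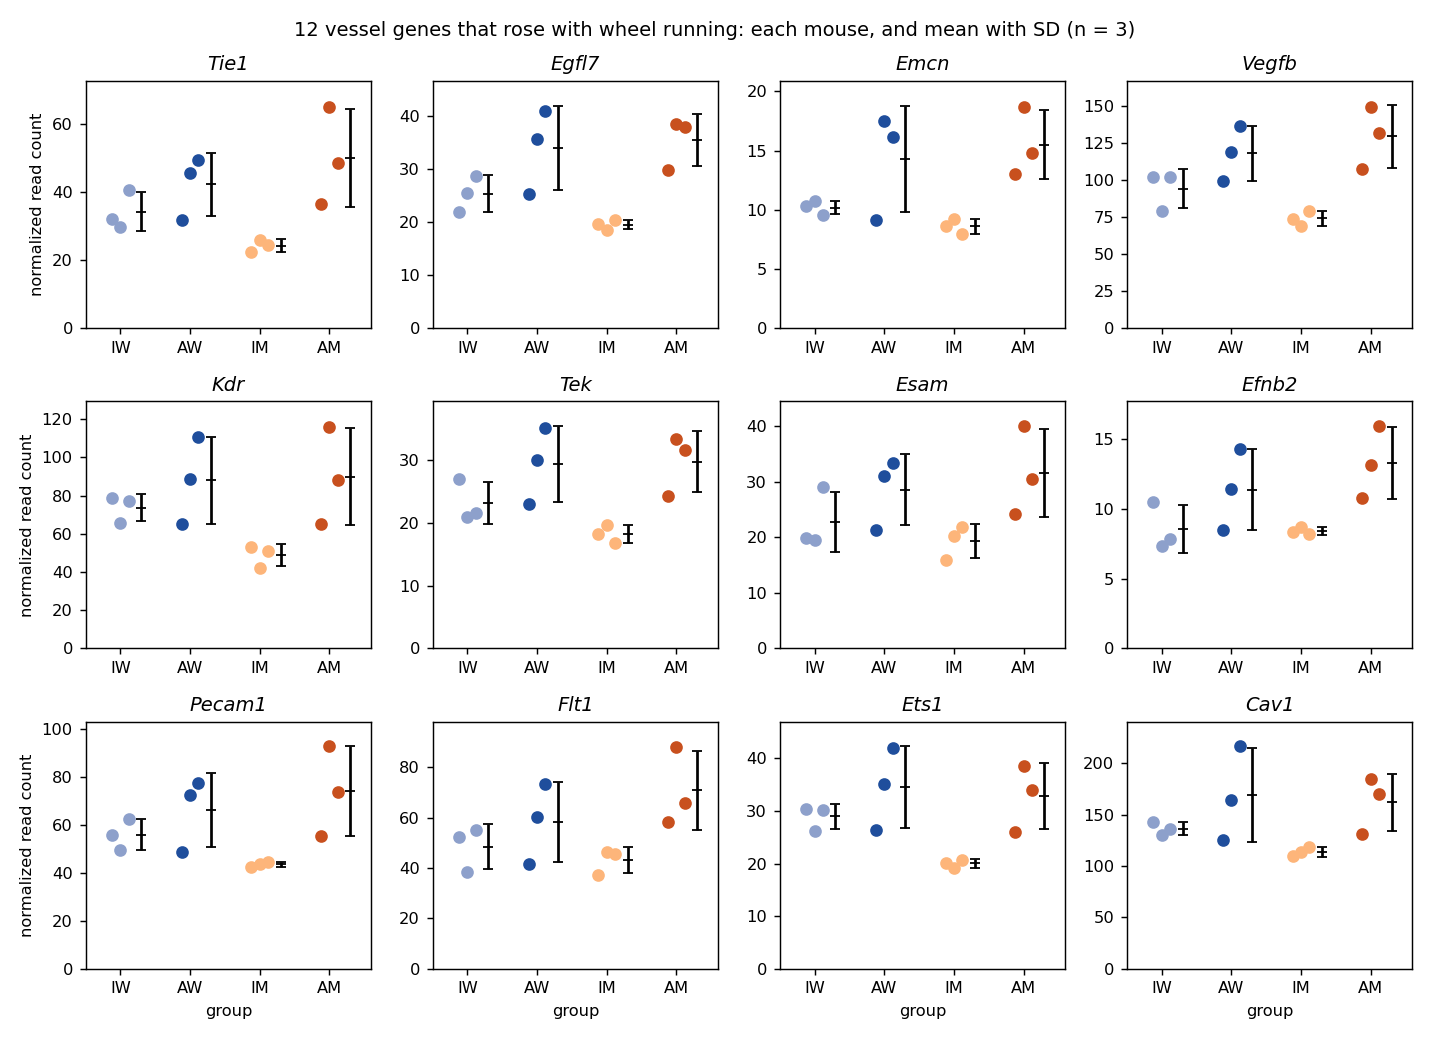
Normalized read counts (vertical axes, from 0) of the 12 members that rose with activity in IW, AW, IM and AM mice; points are mice 1 to 3 from left to right, and bars give the mean with its SD (n = 3). AW mouse 1 lies with the inactive mice in each panel, and IM mice lie lowest or among the lowest.

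**Figure D3:**
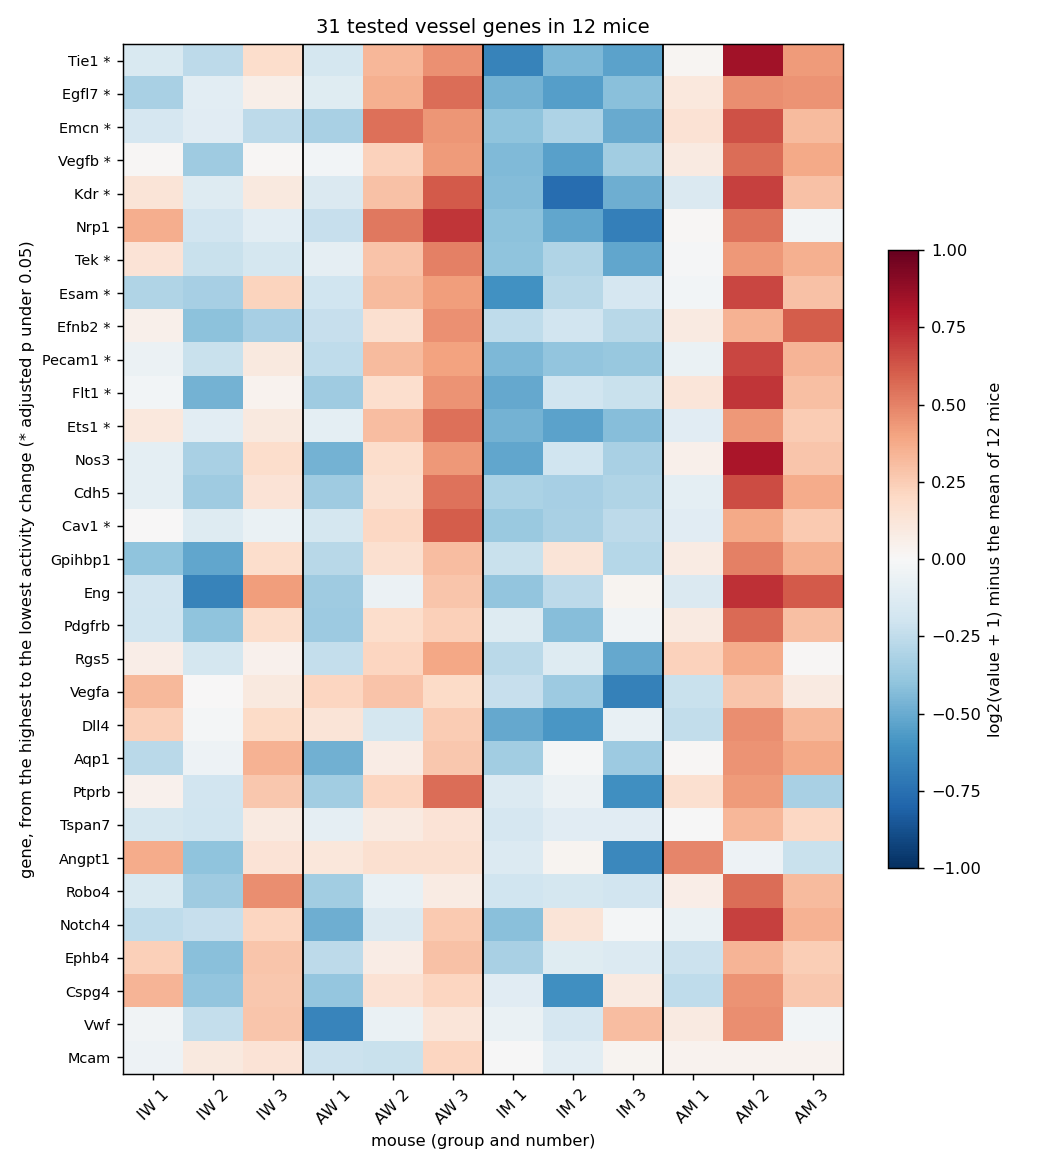
Deviation of each tested member (rows, from the highest to the lowest activity change) from its own mean over 12 mice, on the log2(value + 1) scale, in each mouse (columns); red is above and blue below the mean, and an asterisk marks an adjusted p under 0.05 for activity. The 3 IM columns are mostly blue, AM mouse 2 and AW mouse 3 are mostly red, and AW mouse 1 is mostly blue.

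The 10 members below the minimum were Cldn5, Icam2, Plvap, Flt4, Ramp2 and the transcription factors Erg, Fli1, Sox7, Sox17 and Sox18. Their mean over 12 mice ran from 4.27 normalized reads (Icam2) to 8.74 (Fli1). The exons of Ramp2 overlap those of Vps25 on the same strand. The AM mean was above the IM mean in 10 of 10 and the AW mean above the IW mean in 6 of 10, against 58.5% and 60.9% of the 2940 genes below the minimum. Flt4 and Erg were the 2 in which every AM mouse was above every IM mouse, and in none was every AW mouse above every IW mouse; of the 2940 genes, 14.5% and 9.08% were apart in these ways. Flt4 ranged from 4.0 to 5.97 in IM and from 6.83 to 12.4 in AM mice, and Erg, an ETS factor that maintains endothelial identity, from 4.5 to 4.64 in IM and from 5.84 to 8.38 in AM mice. Sox18, a factor of vessel and lymphatic development and the highest transcription factor per kilobase, measured 10.2, 6.09 and 12.3 normalized reads in inactive and 5.19, 8.4 and 12.5 in active wild-type mice, and 4.22, 4.0 and 7.26 in inactive and 6.47, 17.1 and 8.17 in active myostatin-reduced mice. With the filter lifted, limma called none of these 10 for activity, the smallest adjusted p being 0.0745 for Erg, and 3 of them (Icam2, Flt4 and Erg) had an unadjusted p under 0.05, as had 18.6% of the 2940 genes.

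The activity change was called within myostatin-reduced mice but not within wild-type mice, and the difference between the genotypes did not pass its own test. Between AM and IM mice, 9 of the 31 members rose and 0 fell, where 5.31% of all genes were called higher and 2.53% lower. These were Tie1 at 0.98 (adjusted p = 0.0144), Kdr at 0.84 (adjusted p = 0.0281), Egfl7 at 0.82 (adjusted p = 0.0117), Vegfb at 0.79 (adjusted p = 0.00874), Emcn at 0.77 (adjusted p = 0.0342), Pecam1 at 0.72 (adjusted p = 0.0339), Ets1 at 0.67 (adjusted p = 0.0253), Tek at 0.67 (adjusted p = 0.025) and Vegfa at 0.47 (adjusted p = 0.0496), each as a log2 change. Every AM mouse was above every IM mouse in 22 of the 31 members, and 14.5% of all genes did the same. All 31 changes were above 0, with a median of 0.57, against 45.4% above 0 over all genes. The count rested on single mice: it was 0 without AM mouse 2, 3 without AM mouse 3, 2 without any one of the 3 IM mice, 18 without AM mouse 1 and 17 without AW mouse 1. In those fits the share of all genes called was 1.19% without AM mouse 2, 5.52% without AM mouse 3, 1.63% to 3.02% without an IM mouse, 15.2% without AM mouse 1 and 10.7% without AW mouse 1. The count of called members was 1 with the slow-fibre score as a covariate, where 2.58% of all genes were called. In fits of the 6 myostatin-reduced mice alone, chosen after seeing the data, it was 16 (7.4% of all genes), and 25 with mice paired by number (14.9%). The labels do not say that a number pairs mice, so the paired count rests on a pairing chosen with the data in view.

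Between AW and IW mice, no member was called by limma, where 0.0276% of all genes were called. At an unadjusted p under 0.05 there were 2 members, Egfl7 at 0.39 (95% confidence interval 0.047 to 0.73, unadjusted p = 0.029, adjusted p = 0.269) and Vegfb at 0.32 (95% confidence interval 0.016 to 0.63, unadjusted p = 0.0408, adjusted p = 0.309), and 14.7% of all genes. In none of the 31 members was every AW mouse above every IW mouse, which 9.09% of all genes showed. AW mouse 1 was inside or below the range of IW mice in each of the 12 genes that rose over both genotypes, and without it 2 members were called, Emcn (log2 change 0.68, adjusted p = 0.0335) and Egfl7 (0.58, adjusted p = 0.0438), as were 2.73% of all genes, and 16 members had an unadjusted p under 0.05 (20.7% of all genes). That unadjusted count was 0 without IW mouse 2 (9.97% of all genes) or AW mouse 2 (9.69%), 1 to 5 without any other mouse (9.51% to 16.6%), 14 with sample weights (23.6%) and 0 with the slow-fibre covariate (13.8%). The median change was 0.16, and 24 of 31 members were above 0, as were 47.1% of all genes. Without AW mouse 1 the median was 0.39 with 29 members above 0 (45.6% of all genes). Without AW mouse 3 it was 0.062 with 20 above 0 (48.8%).

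The interaction, that is the activity change in myostatin-reduced mice minus that in wild-type mice, was called by limma in none of the members and in 0 of the 7247 genes. At an unadjusted p under 0.05 there were 4 members: Tie1 at 0.69 (95% confidence interval 0.084 to 1.305, unadjusted p = 0.0289, adjusted p = 0.889), Vegfb at 0.47 (95% confidence interval 0.033 to 0.90, unadjusted p = 0.037, adjusted p = 0.889), Dll4 at 0.64 (95% confidence interval 0.044 to 1.23, unadjusted p = 0.0373, adjusted p = 0.889) and Robo4 at 0.60 (95% confidence interval 0.020 to 1.18, unadjusted p = 0.0436, adjusted p = 0.889). Of all genes, 4.1% were below that value. This count was 16 without AW mouse 3 (5.22% of all genes in that fit), 13 without AM mouse 1 (11.4%), 7 without IW mouse 2 (6.56%), 0 without IW mouse 3 (2.72%) or AM mouse 2 (2.45%), and 1 to 4 in the rest. The interaction was above 0 in all 31 members, with a median of 0.40, and in 48.7% of all genes with a median of -0.005. The median of the members was 0.20 without AW mouse 1, with 30 of 31 above 0 (51.4% of all genes), and 0.56 without AW mouse 3. With sample weights the interaction was -0.004 for Ptprb and -0.009 for Gpihbp1. The intervals of the other 27 members included 0, which does not show that the genotypes responded alike. Markers of other cells and fibres had interactions above 0 as well: 3 of 3 Schwann cell genes (median 1.12, all 3 with an unadjusted p under 0.05), 6 of 7 smooth muscle genes (median 0.55) and 11 of 11 slow-fibre genes (median 1.07), against 1 of 8 fibroblast genes (median -0.23). The slow-fibre result rested on single mice: 4 of 11 were above 0 without AW mouse 1 (median -0.12) and 6 of 11 without IW mouse 1 (median 0.27). With sample weights it was 9 of 11 (median 0.16). With the slow-fibre score as a covariate the interaction stayed above 0 in all 31 members (0.052 to 0.63, median 0.30; 51.7% of all genes were above 0), and 3 members had an unadjusted p under 0.05, as had 5.48% of all genes. The part of the other cells in the interaction was not tested.

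**Figure D4:**
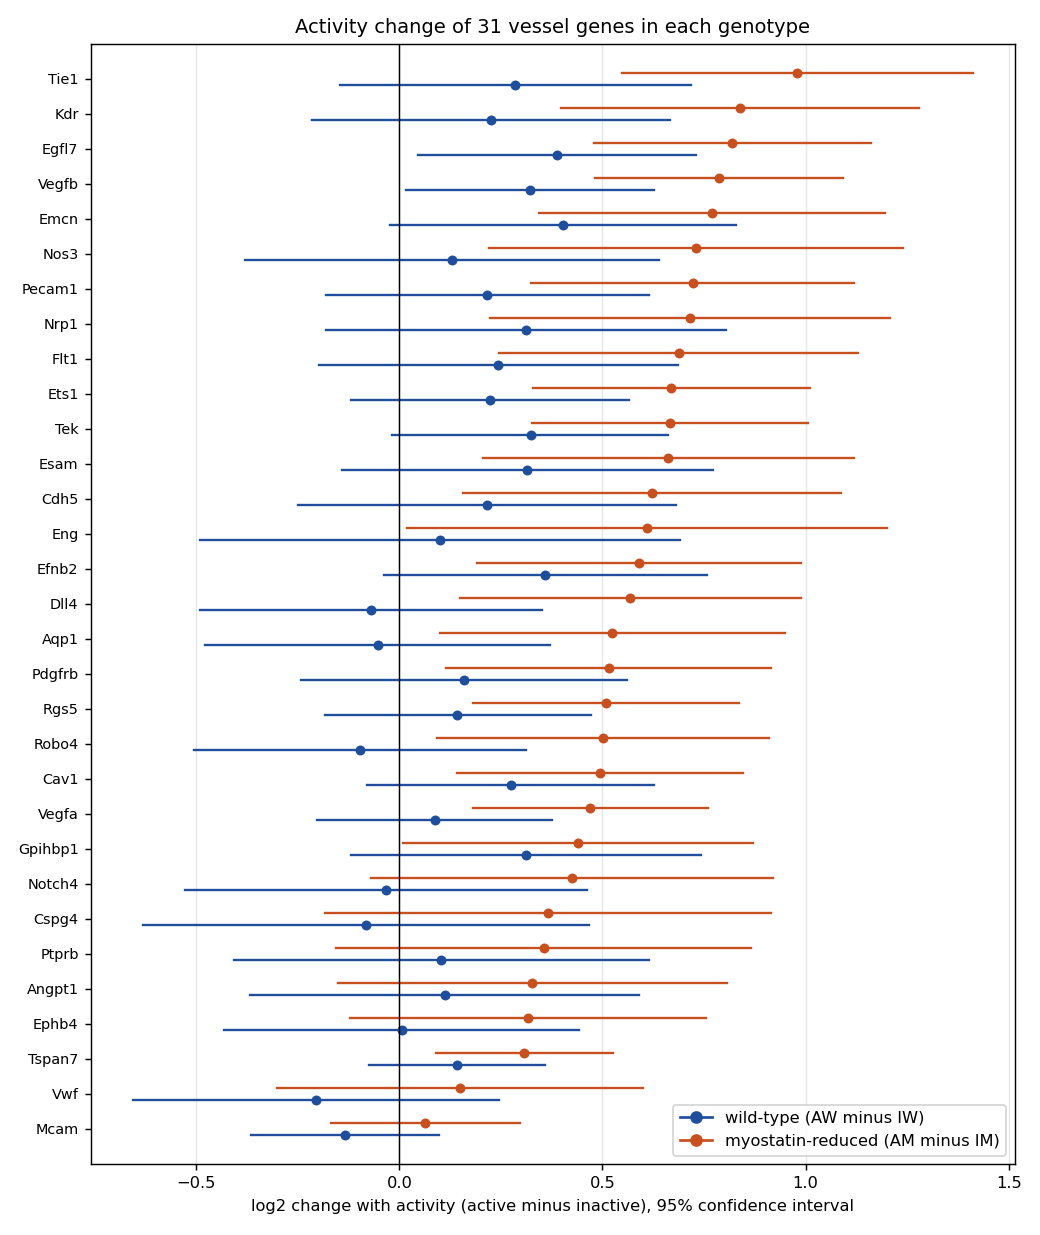
Log2 change with activity (horizontal axis) of 31 members in wild-type mice (AW minus IW, blue) and myostatin-reduced mice (AM minus IM, orange), with 95% confidence intervals from limma, ordered by the latter change. Every orange point lies right of the blue point of the same gene, and the 2 intervals overlap for every gene.

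Reduced myostatin was accompanied by a lower Vegfa, and no other member was called for genotype over both activity levels. Vegfa (chr17:46153942-46169326, minus strand), the main signal by which muscle fibres call for capillaries, measured 328, 262 and 280.4 normalized reads in inactive and 304, 319 and 299 in active wild-type mice, and 223, 203 and 164 in inactive and 224, 317 and 278 in active myostatin-reduced mice. All IM mice were below all other mice, AM mouse 1 was close to the highest IM mouse, and AM mice 2 and 3 were within the range of the wild-type mice. The log2 change with reduced myostatin was -0.38 (SE 0.094, adjusted p = 0.0382), where 5.78% of all genes were called, 2.21% lower and 3.57% higher. At an unadjusted p under 0.05 there were 3 members (22.5% of all genes; 7 without AW mouse 1, where 24.8% of all genes were, and 1 to 5 without any other mouse), and 12 of 31 changes were above 0 (48.3% of all genes). With the slow-fibre score as a covariate 20 of 31 were above 0 (46.7% of all genes), and 2 members had an unadjusted p under 0.05 (19.7% of all genes). The sign for genotype turned in at least 1 fit without a mouse in 9 members (Cdh5, Esam, Emcn, Mcam, Flt1, Ephb4, Nos3, Aqp1 and Cspg4). Among inactive mice it was -0.57 (SE 0.13, adjusted p = 0.0458), the one call among the members where 1.13% of all genes were called lower, a call lost without IW mouse 1 or 3, AW mouse 2 or 3, AM mouse 3 or any IM mouse, and among active mice -0.18 (adjusted p = 0.611). The call over both activity levels held without IW mouse 2, IM mouse 1, AW mouse 1 or AM mouse 2 and was lost without each of the other 8 mice (adjusted p from 0.0539 to 0.0958 in those 8 fits), and the adjusted p was 0.0822 with the slow-fibre score as a covariate. Without AW mouse 1, 3 members were called lower: Nrp1 (-0.51), Ets1 (-0.37) and Vegfa (-0.38), where 7.91% of all genes were called in either direction.

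Among inactive mice, most other vessel genes were lower in the myostatin-reduced group without passing the adjusted test. Of the 31 members, 29 had a change below 0, with a median of -0.26, whereas over all genes 50.4% were above 0. The 11 slow-fibre genes were all below 0 in the same contrast, with a median of -2.0 (-0.89 without IW mouse 1 and -2.90 without IW mouse 2). With their score as a covariate 23 members were below 0 with a median of -0.073, and 4 had an unadjusted p under 0.05 (15.6% of all genes). An unadjusted p under 0.05 was found for 8 members (3 without IM mouse 2, 4 without IM mouse 1, and 5 without IM mouse 3, IW mouse 1 or IW mouse 3, where 11.6% to 15.6% of all genes were) and 17.4% of all genes, and every IM mouse was below every IW mouse in 11 members (Pecam1, Emcn, Kdr, Nrp1, Tek, Tie1, Vegfa, Egfl7, Dll4, Ets1 and Cav1), where 12.7% of all genes were apart in that direction. Kdr at -0.59 (adjusted p = 0.148), Nrp1 at -0.56 (adjusted p = 0.225) Dll4 at -0.53 (adjusted p = 0.18) and Ets1 at -0.51 (adjusted p = 0.117) had the largest changes beside Vegfa. Among active mice 25 of 31 changes were above 0 (47.2% of all genes) with a median of 0.13, and limma called none, where 0.207% of all genes were called. This direction rested on AW mouse 1: without it 15 of 31 were above 0 with a median of -0.026 (49.5% of all genes). Without AM mouse 2 the median was 0.015. One member, Robo4 at 0.43 (95% confidence interval 0.017 to 0.83, unadjusted p = 0.0424, adjusted p = 0.392), had an unadjusted p under 0.05, as had 12.3% of all genes; this count was 7 without AW mouse 3 (9.51% of all genes), 6 without AM mouse 1 (17.5%), 6 with the slow-fibre covariate (14.3%) and 0 or 1 without any other mouse. In group means, IM was the lowest of the 4 groups in 27 of 31 members and AM the highest in 24. These comparisons share mice: AM minus IM and IM minus IW both use the IM mice.

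Mice of the same group differed in the overall level of the vessel genes. The median deviation of the 31 members from their means over 12 mice was -0.033, -0.23 and 0.14 in inactive and -0.23, 0.18 and 0.41 in active wild-type mice, and -0.38, -0.28 and -0.30 in inactive and 0.014, 0.47 and 0.30 in active myostatin-reduced mice. IM mice were close to each other, whereas AW mouse 1 was level with IW mouse 2. The summed level of the 6 endothelial markers was 276, 238 and 303 normalized reads in inactive and 236, 338 and 404 in active wild-type mice, and 209.9, 206 and 218 in inactive and 265, 440.4 and 355 in active myostatin-reduced mice, lowest in the IM mice and highest in AM mouse 2. The sum of the 3 pericyte markers was 111 to 141 in inactive and 108 to 167 in active wild-type mice, and 104 to 113 in inactive and 142 to 178 in active myostatin-reduced mice. The slow-fibre score, the mean deviation of 11 slow-fibre genes on the log2 scale, was 1.96, -1.96 and 0.086 in inactive and -1.02, 2.33 and 2.49 in active wild-type mice, and -2.23, -1.39 and -1.79 in inactive and 1.09, 2.06 and -1.63 in active myostatin-reduced mice. Score and member level were both high in AW mice 2 and 3 and AM mouse 2 and both low in IW mouse 2, AW mouse 1 and the 3 IM mice, whereas in AM mouse 3 the score was low with 27 of the 31 members above their mean and in IW mouse 1 it was high with 14 above. With this score as a covariate the median activity change of the members was 0.22 and 26 of 31 were above 0 (48.6% of all genes). The score was itself tied to activity, since 11 of 11 slow-fibre genes were above 0 (median 1.80). Fits with this covariate can therefore take away part of an activity change.

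**Figure D5:**
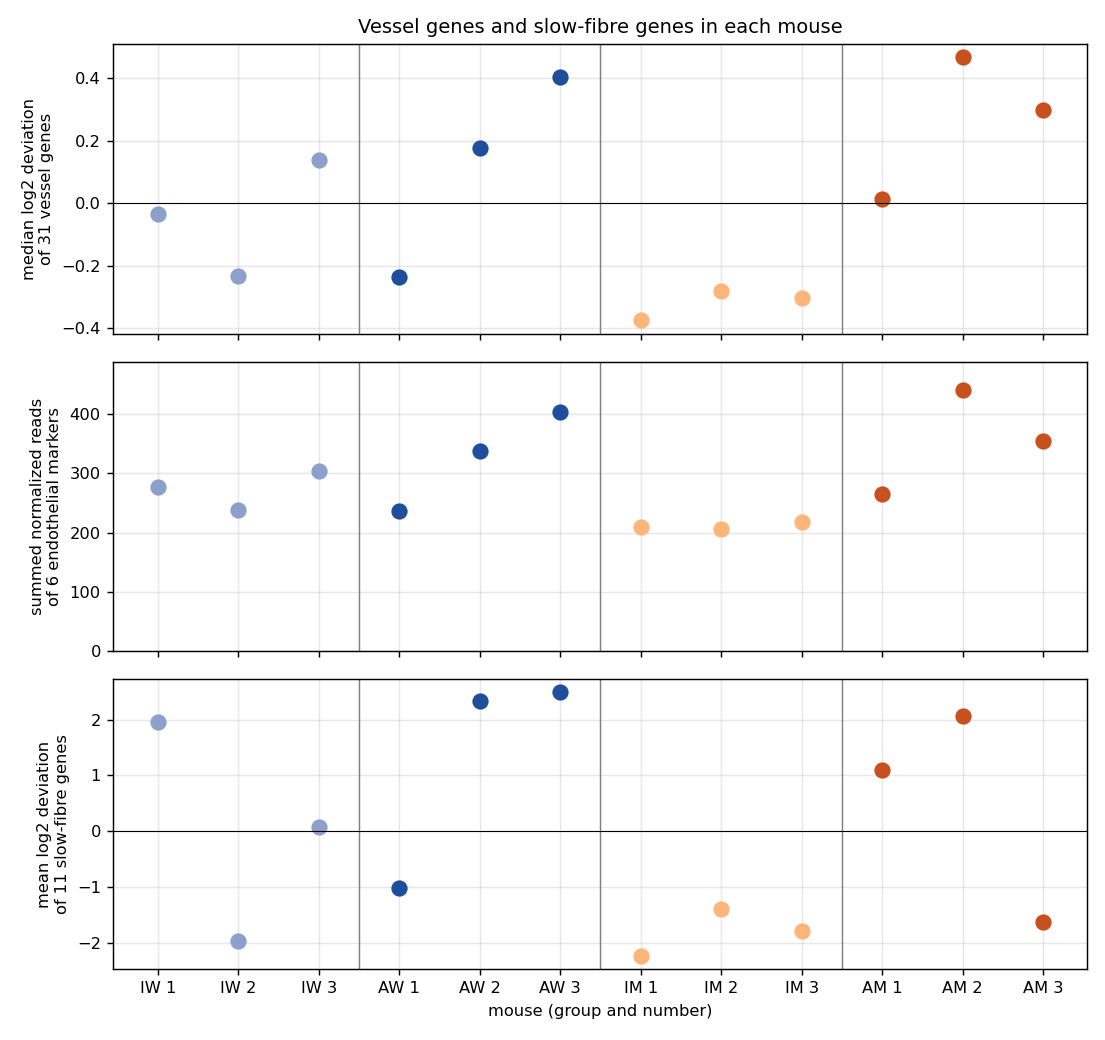
Median log2 deviation of the 31 tested members (top), summed normalized reads of 6 endothelial markers (middle, from 0) and mean log2 deviation of 11 slow-fibre genes (bottom) in each of the 12 mice. AW mouse 1 lies at -0.23 in the top panel, and AM mouse 3 lies at 0.30 there with a slow-fibre score of -1.63.

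Of other endothelial genes, 8 rose with activity, and no other gene of angiogenic signalling was called higher. Of 29 tested genes of the first list (50 listed), 8 rose with activity and 0 fell (7.99% and 6.51% of all genes), with a median log2 change of 0.30. The called genes with the largest change were Lpl (0.89, adjusted p = 0.0164) and Cd36 (0.88, adjusted p = 0.0122), which release and take up fatty acids and are also made by muscle fibres, Fabp4 (0.64, adjusted p = 0.00331), a fatty acid carrier of capillaries and adipocytes, and Ly6c1 (0.50, adjusted p = 0.00843), a surface marker of mouse capillaries. For genotype, Tmem100, an endothelial target of bone morphogenetic protein signals, was lower in myostatin-reduced mice (log2 change -0.89, adjusted p = 0.00135), with means of 40.1 ± 8.91 in inactive and 30.6 ± 4.88 in active wild-type mice, and 18.2 ± 1.38 in inactive and 18.4 ± 3.17 in active myostatin-reduced mice (SD, n = 3). Of 33 tested genes of angiogenic signalling (64 listed), none rose with activity and 1 fell, Sema3c (-0.31, adjusted p = 0.0307), with a median of -0.025, near that of all genes, and 10 had an unadjusted p under 0.05, as had 30.2% of all genes. Of the 62 genes of both lists, 9 were called, where 14.5% of all genes were. The 9 became 20 without AW mouse 1 (20.5% of all genes) and 15 without AM mouse 1 (18.4%). They became 4 without IW mouse 2 (8.04%) or AW mouse 3 (7.62%), and 5 without IM mouse 2 (10.1%), IM mouse 3 (9.04%), AW mouse 2 (8.23%) or AM mouse 2 (8.49%). With the slow-fibre score as a covariate 6 of the 62 genes of both lists were called, 3 of them higher, and 5.53% of all genes. For genotype, 3 of the 33 angiogenic signalling genes were called higher, where 3.57% of all genes were. The platelet-derived growth factor Pdgfb, which attracts pericytes, was higher in myostatin-reduced mice (0.52, adjusted p = 0.0101), as were Plcg1 (0.27, adjusted p = 0.0151) and Timp3 (0.27, adjusted p = 0.0415).

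Markers of other cells of muscle were set beside these changes. With activity, 0 of 7 tested smooth muscle genes were called (median 0.16), 0 of 8 fibroblast genes (median -0.22), 0 of 3 macrophage and leukocyte genes (median -0.11), 0 of 3 adipocyte genes (median 0.31), 0 of 3 Schwann cell genes (median 0.088) and 0 of 1 erythrocyte gene (0.24). At an unadjusted p under 0.05 there were 1 smooth muscle, 4 fibroblast and 1 adipocyte gene, and 0 of the other 3 lists, against 30.2% of all genes. Of the 7 lymphatic genes, 3 were in the table and none was tested; their sum was 11.9 to 22.0 normalized reads in all mice, and Flt4 is one of them. The sum of the adipocyte genes was 2607 to 3810 in inactive and 1994 to 3297 in active wild-type mice, and 3986 to 4452 in inactive and 2934 to 4561 in active myostatin-reduced mice, with its highest group mean in IM mice. That sum did not follow most of its tested genes: between IM and IW mice 1 of 3 was above 0 (median log2 change -0.17). Slow-fibre genes were above 0 with activity in 11 of 11 (median 1.80, 1 called higher), and of 12 fast-fibre genes 1 was called higher and 4 lower (median -0.18). The part of these cells and fibres in the change of the vessel genes was not tested beyond the slow-fibre covariate.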

How the data were processed

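Polyadenylated RNA of triceps brachii from 12 mice was sequenced as single-end reads on a Genome Analyzer IIx. The authors mapped reads with CASAVA (version not stated) to mm9, counted them in RefSeq exons and deposited, as a signal per gene, normalized read counts scaled to an equal trimmed mean of the non-mitochondrial genes. Values are not divided by length, and every gene of the table had a group mean of at least 3.0. Titles of the samples gave group and mouse number.

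The step between low values gave 9024000 to 12184000 reads per mouse; 3 reads were worth 0.231 to 0.316, which covers counting error only. Of values from 20 to 50, 67.2% to 69.8% were whole reads (within 0.0051 normalized reads of a whole number of reads), so no count model was run. Genes with a mean of at least 10 were fitted on log2(value + 1) with limma 3.58.1 (R 4.3.3), with a mean per group and a variance trend; a log2 change on that scale understates the change of low genes. P-values were two-sided and adjusted by Benjamini-Hochberg over 7247 genes. Mice are separate animals, and the spread between them is the error used.

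Positions and exon lengths came from GENCODE M1 (NCBIM37), in which 10116 gene symbols of the table matched and 71 did not, and promoters came from RefSeq (GRCm38.p6). The members, the other lists and the tests were chosen with earlier results of these data known. Values in every mouse are given for called members, the 3 with the smallest interaction p, the highest per kilobase of each role, and Pecam1, Cdh5, Kdr, Flt1, Vegfa and Rgs5. Alternatives were 2 other pseudocounts (0.5 and 5), no filter or a mean of at least 30, median ratio and upper quartile scaling, no variance trend, sample weights, the slow-fibre score as covariate, a replicate block and leaving out each mouse. Same-numbered mice deviated together only between IM and AM (correlation 0.17 to 0.32 in 3 pairs); over all 18 pairs of groups and numbers it ran from -0.60 to 0.48.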

Additional observations from a re-analysis of the deposited data

How the results depend on the processing

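The count of 12 members that rose with activity was 9 to 14 of 31 under other pseudocounts, scalings, no variance trend and the replicate block (13.5% to 15.5% of all genes), 11 of 41 with no filter (10.7%), 9 of 16 at a mean of at least 30 (24.1%; 6 of the 12 genes, the other 6 not being tested there), 20 with sample weights (24% of all genes) and 2 with the slow-fibre score as a covariate (5.53%). Without single mice it was 5 to 19 (7.62% to 20.5%). The 9 members called between AM and IM mice became 20 with sample weights (12.8% of all genes) and 1 with the slow-fibre covariate (2.58%), and 0 (without AM mouse 2, 1.19%) to 18 (without AM mouse 1, 15.2%) without single mice, against 7.84% as reported. In the 6 myostatin-reduced mice alone, a fit chosen after seeing the data, 16 were called with no replicate block and 25 with the replicate block. Between AW and IW mice, 0 became 1 with sample weights (5.73% of all genes) and 0 to 2 without single mice. The 1 genotype call (Vegfa) was 0 with the slow-fibre covariate and 0 with the replicate block, and 0 to 3 without single mice; among inactive mice it was 0 with no variance trend, 2 with sample weights (4.61% of all genes), 0 with the slow-fibre covariate, 0 with the replicate block and 0 to 1 without single mice. No interaction and no genotype change among active mice was called under any of these alternatives. The 9 calls for activity among other endothelial and angiogenic signalling genes (14.5% of all genes) were 20 with sample weights (24%), 6 (3 higher) with the slow-fibre covariate (5.53%) and 4 to 20 without single mice (7.62% to 20.5%). The cause of these shifts was not tested. Signs turned for activity in Ptprb (-0.052), Ephb4 (-0.014) and Cspg4 (-0.050) with the slow-fibre covariate, in Vwf with sample weights (0.093) and without single mice (-0.108 to 0.088), and in Mcam without single mice (-0.107 to 0.002), and for the interaction with sample weights in Ptprb (-0.004) and Gpihbp1 (-0.009), and in Gpihbp1 without single mice (-0.083 to 0.266). Without single mice the sign also turned in 9 members for genotype, 8 for genotype among inactive mice, 16 for genotype among active mice, and in 11 between AW and IW mice. A tally of single genes held the activity and interaction changes of the members and the genotype changes of Vegfa, Kdr, Nrp1, Ets1 and Gpihbp1. It also held Vegfa between AM and IM and between IM and IW mice, and the named genes of the other lists. Of its 1678 recomputed values, 1505 kept direction and side of the threshold, 126 lost the call, 33 gained one and 14 turned sign. The turns for genotype, for genotype at each activity level and between AW and IW mice given above lie outside it. Mouse numbers did not pair the samples over all groups, and the replicate block moved no other count of calls by over 1.5 times; at an unadjusted p under 0.05 it moved the interaction count from 4 to 9, that between AW and IW mice from 2 to 4 and that between AM and AW mice from 1 to 4.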
